A study of Mus musculus with 35 samples.

Results

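The perilipin and Cide genes encode proteins that sit on the lipid droplet, the store of triglyceride in a fat cell, and they were followed here in brown and white fat of the mouse. The 8 members, the perilipins Plin1, Plin2, Plin3, Plin4 and Plin5 and the Cide genes Cidea, Cideb and Cidec, were taken by symbol from the 18947 genes of the authors' comparison of mRNA between the depots, and all 8 were found. The brown depot was iBAT, interscapular brown fat, and the white depot was eWAT, epididymal fat. Each had 4 mRNA libraries of whole tissue from untreated male C57BL/6J mice of 15 weeks, dissected and flash frozen. The study also held 9 Argonaute-bound RNA samples and 18 microRNA libraries from 6 depots, not used here, among 35 samples in all. No label states that the 4 libraries of a depot came from separate mice, so p-values speak only for the variation among these libraries. The file gives a comparison and no values of single libraries, so the depth and the spread of each library are unknown and it cannot be said whether libraries of the depots overlap.

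As background, perilipins coat the droplet surface and decide which lipases reach the triglyceride inside. PLIN1 is the main coat of the adipocyte droplet and releases the lipase activator ABHD5 when protein kinase A phosphorylates it. CIDE proteins gather at the contact between droplets and let lipid pass from the smaller to the larger droplet, so that droplets grow. Brown adipocytes hold many small droplets that lie against mitochondria, and white adipocytes hold a single large one.

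Marker genes of each depot were looked up first. All 12 brown adipocyte markers were higher in iBAT according to the authors' deposited table, their median log2 fold change being 7.95. All 10 white adipocyte markers were lower, with a median of -3.58. Among the latter, Cfd and Adipoq still had implied levels of 80555 and 63913 normalized counts in iBAT, so they do not mark white fat alone. The header of that table does not state its direction. A positive value was taken to mean more mRNA in iBAT. The reason was that Ucp1 (15.87 ± 0.90) and Cox8b (7.90 ± 0.17) were positive and Wt1 (-6.80 ± 0.43) and Lep (-2.77 ± 0.84) negative according to the authors' deposited table. None of these is a member, but Ucp1 and Cox8b are in the brown list, Lep in the white list and Wt1 in the mesothelial list. The markers therefore do not check the labels, and show only that the brown and white lists moved in opposite directions. Values after ± are standard errors of the log2 fold change throughout. Markers of other cells differed too. All 22 skeletal muscle markers were higher in iBAT (median 7.16), with an implied summed level of 202252 normalized counts in iBAT and 3613 in eWAT. The part of muscle in the values of the brown adipocyte markers was not tested. All 16 macrophage markers were lower in iBAT (median -1.95), with an implied sum of 22438 in iBAT and 98522 in eWAT. All 10 mesothelial markers were lower (median -7.63; implied sums of 381 in iBAT and 17494 in eWAT), and so were 9 of 13 measured markers of the epididymal epithelium (implied sums of 27.6 in iBAT and 89233 in eWAT), while 4 were not called. Of 10 endothelial markers 2 were higher, 3 lower and 5 not called (median -0.24; implied sums of 38336 in iBAT and 38035 in eWAT). In whole tissue, fewer cells of a type and less RNA per cell cannot be told apart.

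All 8 members differed between the depots at an adjusted p under 0.05 according to the authors' deposited table, against 48.0% of all genes. At least 1 on the log2 scale was reached by 6 of them, against 30.6%. Of the members 5 were higher in iBAT, namely Cidea, Plin5, Cideb, Plin3 and Plin2, against 20.9% of all genes, and 3 were lower, namely Plin1, Plin4 and Cidec, against 27.1%. Their median log2 fold change was 1.05, beside -0.10 for all genes, and the median size without sign was 1.72, beside 0.60. With so large a share of the table called, these counts say little about the family as such, and the values of the single genes follow. A mean level in each depot was solved from the deposited base mean, the mean normalized count over all samples, and the deposited fold change, on the assumption that 4 and 4 libraries entered the mean. It is called the implied level, and the ranges given with it carry only the error of the fold change. Normalized counts are not corrected for transcript length, so levels are compared between depots and not between genes.

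**Figure D1:**
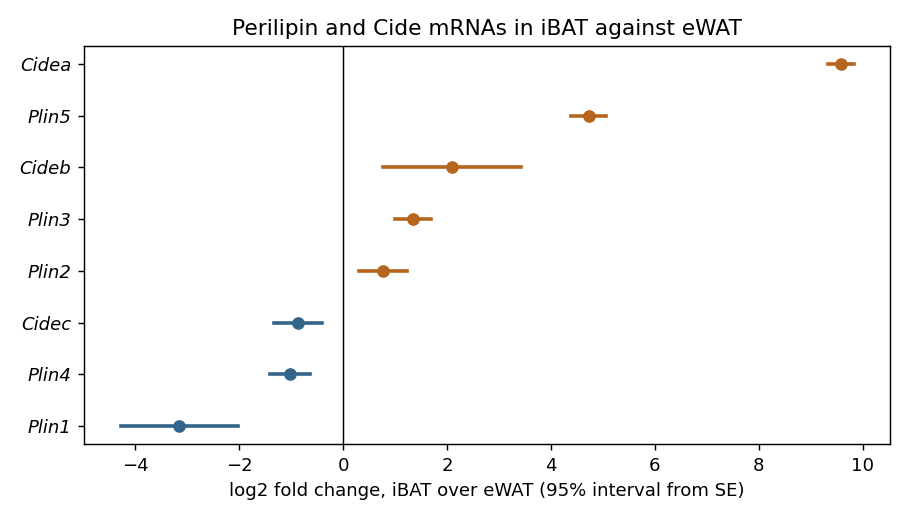
Log2 fold change of the 8 mRNAs, iBAT over eWAT, on the x axis, with 95% intervals from the deposited standard errors as lines; brown marks are above 0 and blue marks below. Cidea at 9.58 and Plin5 at 4.73 stand furthest to the right and Plin1 at -3.16 furthest to the left.

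Cidea had by far the highest fold change of the family. CIDEA is the droplet protein of brown adipocytes that has long served as one of their markers, and it enriches lipid in larger droplets. The implied level of Cidea (ENSMUSG00000024526, GRCm38.p6 chromosome 18, 67343564 to 67367794) was 107665 normalized counts in iBAT and 141 in eWAT. The log2 fold change was 9.58 ± 0.13, or 765-fold (95% interval 642 to 912), with the adjusted p listed at 0 according to the authors' deposited table. Only 32 of the 18947 genes had a higher fold change, since Cidea ranked 33. It also had one of the smaller standard errors among genes with a base mean within 2-fold of its own, as 103 of those 107 genes had one at least as large. 

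Plin5 came next. PLIN5 coats droplets in tissues that burn fatty acids, such as heart, oxidative muscle and brown fat, and tethers droplets to mitochondria. The implied level of Plin5 (ENSMUSG00000011305, chromosome 17, 56111597 to 56117606) was 7992 normalized counts in iBAT (7915 to 8054) and 302 in eWAT (240 to 379). It was higher in iBAT by 4.73 ± 0.17 on the log2 scale, 26.5-fold (20.9 to 33.5), with an adjusted p of 2.71e-161 according to the authors' deposited table, and ranked 184 among all genes by fold change. Muscle fibres also express Plin5. The muscle markers of highest base mean, Myh4 (17.69 ± 1.36), Acta1 (5.06 ± 0.31) and Atp2a1 (11.47 ± 0.31), were higher in iBAT according to the authors' deposited table, and the part of muscle in the Plin5 value was not tested.

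Plin3 and Plin2, the perilipins found in most cell types, differed less. PLIN3 is a cytosolic protein that moves onto new droplets, and PLIN2 coats droplets outside adipocytes and in adipocyte precursors. Plin3 (ENSMUSG00000024197, chromosome 17, 56278962 to 56290511) had implied levels of 6249 normalized counts in iBAT and 2465 in eWAT. It was higher by 1.34 ± 0.18, or 2.54-fold (2.00 to 3.22; adjusted p = 1.01e-13) according to the authors' deposited table. Plin2 (ENSMUSG00000028494, chromosome 4, 86626910 to 86670217) had implied levels of 13933 normalized counts in iBAT (12219 to 15512) and 8203 in eWAT (6625 to 9918). It was higher by 0.76 ± 0.24, or 1.70-fold (1.23 to 2.34; adjusted p = 0.00261) according to the authors' deposited table. These were the smallest fold changes among the 5 members higher in iBAT. Plin2 overlaps the transcribed pseudogene Gm12551 over 5312 bases in RefSeq, but that gene had a base mean of only 1.28 in the authors' deposited table. PLIN2 is also a droplet protein of lipid-laden macrophages. Of their markers, Lyz2 (-2.36 ± 0.27), C1qa (-2.56 ± 0.31) and C1qb (-2.39 ± 0.31) were lower in iBAT according to the authors' deposited table. The part of macrophages in the Plin2 value was not tested.

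Cideb, the third Cide gene, is known from liver and gut, where CIDEB loads lipid onto lipoproteins. Cideb (ENSMUSG00000022219, chromosome 14, 55754052 to 55758424) had implied levels of 173 normalized counts in iBAT (134 to 195) and 40.4 in eWAT (18.2 to 78.7). It was higher in iBAT by 2.10 ± 0.68, or 4.27-fold (1.71 to 10.7; adjusted p = 0.000988) according to the authors' deposited table. Its base mean of 107 lies below the table's median of 343, and its interval is the widest of the 8. Markers of hepatocytes and enterocytes were measured for 8 of 12 names, and 1 was higher in iBAT, 5 lower and 2 not called (median -2.11), with implied sums of 108 in iBAT and 827 in eWAT. Per the authors' deposited table, Alb (-5.65 ± 0.52), Vil1 (-2.22 ± 0.44) and Serpina1a (-2.59 ± 0.81) were lower. In RefSeq, Cideb overlaps Nop9 over 1583 bases and Ltb4r2 over 503 bases. Nop9 lies on the opposite strand to Cideb and the libraries were stranded. The sources used here do not say whether the authors' counting used the strand, so reads of the overlap may be shared. Nop9 (-0.11 ± 0.16, adjusted p = 0.596) and Ltb4r2 (-0.05 ± 0.95, adjusted p = 0.927) were not called according to the authors' deposited table.

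Plin1 was the member furthest toward white fat. Plin1 (ENSMUSG00000030546, chromosome 7, 79721164 to 79732904) had implied levels of 407 normalized counts in iBAT (197 to 795) and 3630 in eWAT (3242 to 3840). Its log2 fold change was -3.16 ± 0.58, an 8.91-fold difference (4.08 to 19.5; adjusted p = 2.62e-08) according to the authors' deposited table. By base mean Plin1 (2018.5) ranked only 3253 of 18947, with no correction for transcript length, although PLIN1 is the main droplet coat. Whether the counting captured all of its transcripts was not tested. Counted from the most negative fold change, Plin1 ranked 1106 of 18947. Its standard error was wide for its level: of the 4270 other genes with a base mean within 2-fold of its own, 53 (1.24%) had one at least as large, and their median was 0.20. For the other perilipins the shares of such genes were 39.9% (Plin2), 64.5% (Plin3), 63.6% (Plin4) and 65.2% (Plin5).

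Plin4 and Cidec were lower in iBAT by smaller amounts. PLIN4 is a perilipin of white adipocytes with a long repeated amphipathic stretch, and CIDEC, also called FSP27, promotes the single large droplet of white adipocytes and binds PLIN1. Plin4 (ENSMUSG00000002831, chromosome 17, 56100587 to 56109948) had implied levels of 25284 normalized counts in iBAT (20938 to 30043) and 51216 in eWAT (46456 to 55562). Its log2 fold change was -1.02 ± 0.20, a 2.03-fold difference (1.55 to 2.65; adjusted p = 1.15e-06) according to the authors' deposited table. Cidec (ENSMUSG00000030278, chromosome 6, 113424634 to 113435760) had implied levels of 50078 normalized counts in iBAT (40378 to 60711) and 91546 in eWAT (80913 to 101246). Its log2 fold change was -0.87 ± 0.23, a 1.83-fold difference (1.33 to 2.51; adjusted p = 0.00041) according to the authors' deposited table. For both genes the implied ranges of the depots did not overlap. Both ranges were solved from the interval of the same fold change, so this only restates that the interval excludes equal levels. It does not speak to any overlap of single libraries. The white adipocyte markers of highest base mean, Cfd (-2.84 ± 0.31), Adipoq (-1.48 ± 0.28) and Nnat (-4.10 ± 0.51), were lower in iBAT too according to the authors' deposited table. The part of the mix of cells in the Plin1, Plin4 and Cidec values was not tested.

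**Figure D2:**
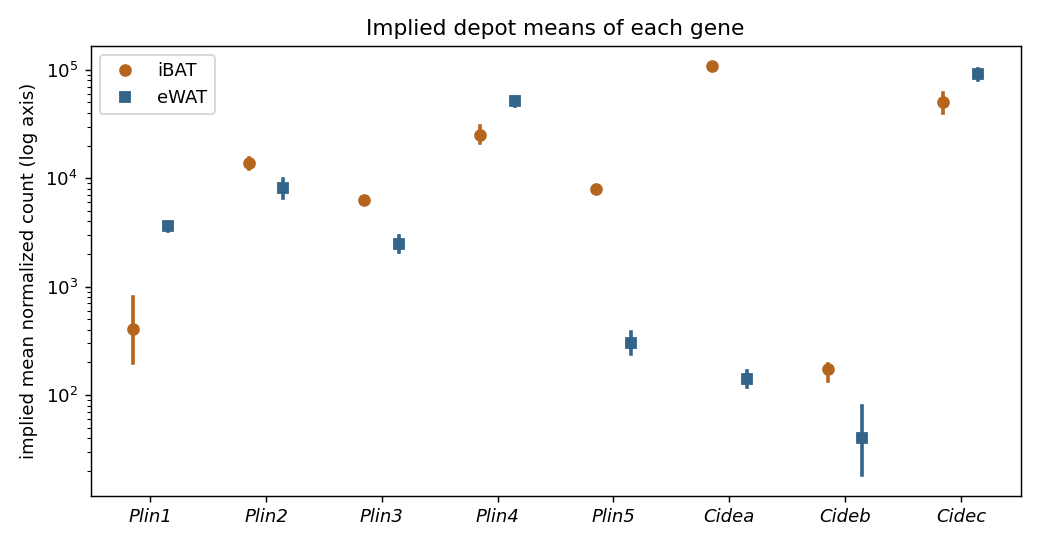
Implied mean normalized count of each gene (log axis) in iBAT, circles, and eWAT, squares, with lines for the range that the 95% interval of the fold change gives. Cidea stands at 107665 in iBAT and 141 in eWAT, while Cidec stands at 50078 in iBAT and 91546 in eWAT.

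From the highest to the lowest fold change, the order was Cidea, Plin5, Cideb, Plin3, Plin2, Cidec, Plin4 and Plin1. The 95% intervals did not overlap in 24 of the 28 pairs of members. The other 4 pairs were Plin3 and Plin2, Cideb and Plin2, Cideb and Plin3, and Cidec and Plin4, so the order within Cideb, Plin3 and Plin2, and between Cidec and Plin4, is not settled beyond the errors. No test of a difference between members could be made, since the members share libraries and no values of single libraries were used. Within the Cide genes the fold changes of Cidea and Cidec differed by 10.45 on the log2 scale, and within the perilipins those of Plin5 and Plin1 by 7.88. 

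**Figure D3:**
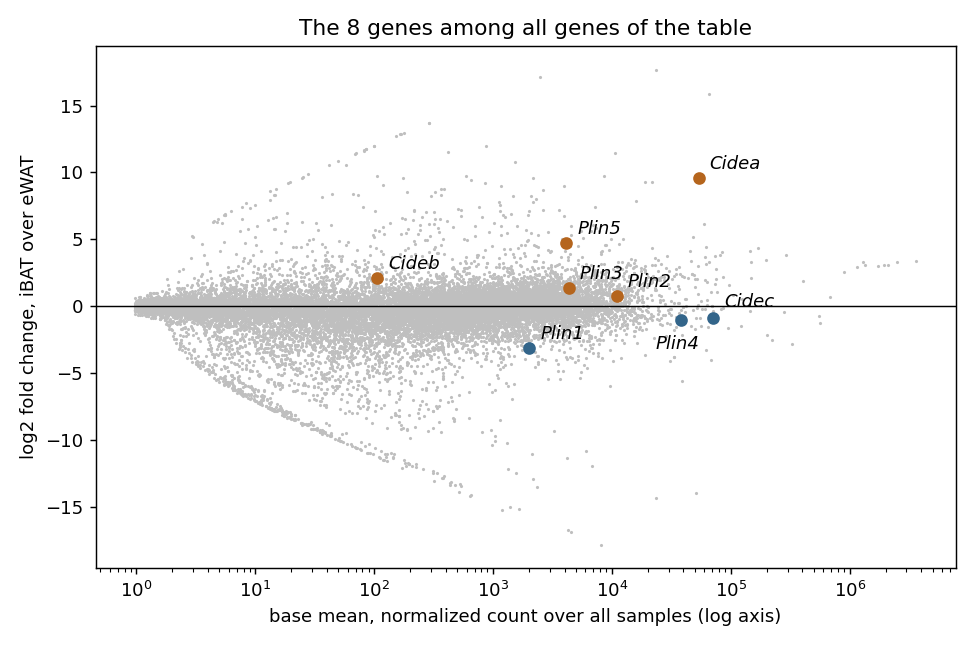
Log2 fold change, iBAT over eWAT, against base mean (log axis) for all genes of the table in grey and the 8 members in colour. Cidea lies near the upper edge of genes with similar base mean, and Plin1 at -3.16 lies below most of the grey cloud.

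Plin5 and Plin4 are neighbours on chromosome 17 and moved in opposite directions. Both lie on the minus strand of GRCm38.p6, with 1648 bases between the end of Plin4 and the start of Plin5 in RefSeq coordinates, and their log2 fold changes differed by 5.74. The next gene after Plin5, Lrg1, which encodes a secreted glycoprotein, lay 2071 bases away and was lower in iBAT (-1.09 ± 0.29, adjusted p = 0.000295) according to the authors' deposited table. Sema6b beyond it was not called (-0.01 ± 0.21, adjusted p = 0.973) according to the authors' deposited table. On the other side Hdgfl2, which overlaps Plin4 by 19 bases, was not called (-0.14 ± 0.82, adjusted p = 0.837), and Ubxn6 beyond it was higher (0.46 ± 0.17, adjusted p = 0.0123) according to the authors' deposited table. Around Plin3, on the same chromosome, Fem1a (1.58 ± 0.11), Ticam1 (0.77 ± 0.18) and Uhrf1 (1.10 ± 0.31) were higher in iBAT as Plin3 was, and Arrdc5 (0.43 ± 1.04, adjusted p = 0.406) was not called according to the authors' deposited table. Beside Plin1, Pex11a, which acts in peroxisome division and lies 3052 bases away, was higher (1.07 ± 0.12, adjusted p = 1.26e-18), while Kif7 was lower (-1.67 ± 0.23, adjusted p = 1.16e-12) according to the authors' deposited table. Impa2, encoding an inositol monophosphatase, lay 24347 bases from Cidea and was higher too (3.39 ± 0.19, adjusted p = 1.64e-66), while the tubulin gene Tubb6, 22936 bases to its other side, was lower (-1.01 ± 0.27, adjusted p = 0.000319) according to the authors' deposited table. Over all 8 members, 26 other measured genes lay within 30 kb, with 6 of them higher in iBAT, 5 lower and the other 15 not called according to the authors' deposited table, a share near the 48.0% called among all genes.

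**Figure D4:**
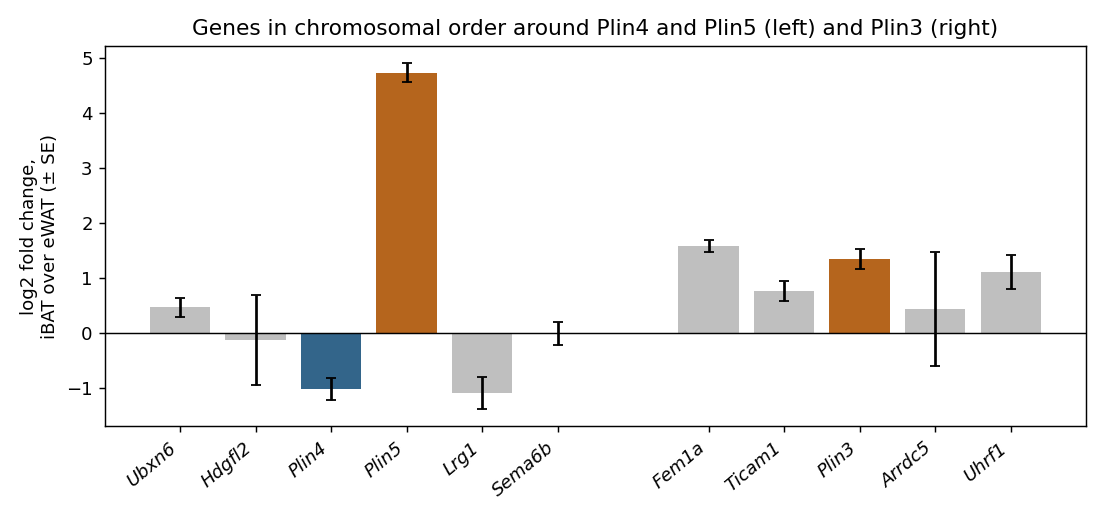
Log2 fold change, iBAT over eWAT, with SE as error bars, for the genes within 30 kb of Plin4 and Plin5 (left block) and of Plin3 (right block), in chromosomal order; perilipins are coloured and other genes grey. Plin5 at 4.73 stands between Plin4 at -1.02 and Lrg1 at -1.09.

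The promoters of 4 perilipins are shown, Plin5 and Plin2 with the largest and smallest fold change of the perilipins higher in iBAT, and Plin4 and Plin1, which were lower. Each is the 250 bases before a transcript start that RefSeq gives (build GRCm38.p6, minus strand, read 5′ to 3′). The RefSeq gene spans given above reach further out than these starts, so that 58 bases of the Plin5 window, 158 of Plin2, 166 of Plin4 and 128 of Plin1 lie inside the gene span, and windows at the outer ends were not searched. Capitals mark matches to the motifs named below.
Plin5, chr17:56117549-56117798: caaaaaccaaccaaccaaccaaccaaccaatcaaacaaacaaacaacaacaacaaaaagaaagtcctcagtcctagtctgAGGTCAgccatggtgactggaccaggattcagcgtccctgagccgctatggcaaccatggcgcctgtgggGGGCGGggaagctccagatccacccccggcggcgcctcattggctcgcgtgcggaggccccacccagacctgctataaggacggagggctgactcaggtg
Plin2, chr4:86670060-86670309: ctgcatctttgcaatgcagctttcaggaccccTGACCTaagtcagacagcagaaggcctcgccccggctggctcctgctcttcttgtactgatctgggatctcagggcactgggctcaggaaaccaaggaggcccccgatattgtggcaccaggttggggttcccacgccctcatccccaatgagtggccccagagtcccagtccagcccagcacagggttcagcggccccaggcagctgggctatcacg
Plin4, chr17:56109783-56110032: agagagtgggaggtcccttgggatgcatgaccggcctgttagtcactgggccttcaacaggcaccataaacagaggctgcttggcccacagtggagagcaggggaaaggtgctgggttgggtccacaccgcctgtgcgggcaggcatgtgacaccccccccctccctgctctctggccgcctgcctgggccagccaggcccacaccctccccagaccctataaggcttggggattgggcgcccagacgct
Plin1, chr7:79732777-79733026: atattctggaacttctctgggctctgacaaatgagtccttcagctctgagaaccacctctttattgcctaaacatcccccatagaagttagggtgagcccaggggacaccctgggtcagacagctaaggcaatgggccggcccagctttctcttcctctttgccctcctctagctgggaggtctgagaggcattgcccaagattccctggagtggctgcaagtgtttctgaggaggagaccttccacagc

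The search used 6 motifs, exact, on both strands, in the 9 windows that RefSeq gives for 7 of the members (Plin5 and Cidec have an additional start each; Cidea was not searched). AGGTCA is the half-site that peroxisome proliferator-activated receptors (PPARs) and their partners RXR bind as a repeat. It was found in the windows of Plin5, 170 to 165 bases before the start on the same strand, and of Plin2, 218 to 213 bases before it on the opposite strand, and 14.0% of all 32851 windows hold it. Both matches lie outside the gene spans. The direct repeat of that half-site with a single base between (DR1, searched with any base as the fourth letter of each half-site; 0.338% of windows), the estrogen-related receptor motif TCAAGGTCA (0.387%), which contains AGGTCA, and the E-box CACGTG (6.02%) were in none of the 9. GGGCGG, the GC box, was in 4 of the 9, both Plin5 windows and those of Plin3 and Cideb, against 32.7% of all windows, and TATAAA was in that of Cideb, against 12.4%. None of the 6 was found in the windows of Plin1, Plin4 and Cidec, which says only that these letters are absent there.

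Of 16 regulators known to act on these genes, 11 stood higher in iBAT, 2 lower and 3 not called according to the authors' deposited table, while 20.9% of all genes were higher and 27.1% lower (median 1.85, beside -0.10 for all genes). Muscle fibres also express several of the regulators, such as Ppara, Ppargc1a and Esrrg, and the median over the muscle markers was 7.16. The part of muscle in the values of the regulators and of the gene lists that follow was not tested. Among the PPARs, Ppara was higher (5.52 ± 0.17, adjusted p = 4.11e-217), while Pparg, the receptor that drives adipocyte formation (0.41 ± 0.33, adjusted p = 0.276), and Ppard (0.21 ± 0.15, adjusted p = 0.217) were not called according to the authors' deposited table. Their partners Rxrg (1.49 ± 0.23) and Rxrb (0.97 ± 0.17) were higher, and Rxra was lower (-0.36 ± 0.15, adjusted p = 0.0266) according to the authors' deposited table, a call that was lost when fold changes were centred on the median of all genes (adjusted p = 0.132). The coactivator genes Ppargc1b (4.93 ± 0.21) and Ppargc1a (3.58 ± 0.31) were higher, and Nrip1, which encodes the corepressor RIP140 known to repress Cidea, was lower (-1.58 ± 0.31, adjusted p = 4.06e-07) according to the authors' deposited table. The estrogen-related receptor genes Esrra (2.56 ± 0.18), Esrrb (3.46 ± 0.49, base mean only 32.1) and Esrrg (3.83 ± 0.55) were all higher according to the authors' deposited table. So were Cebpb (2.39 ± 0.38), Mlxipl, which encodes the carbohydrate sensor ChREBP (2.20 ± 0.21), and Srebf1 (0.98 ± 0.13), while Cebpa was not called (0.62 ± 0.29, adjusted p = 0.0537) according to the authors' deposited table.

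A list of 5 genes was drawn up for Cide-driven droplet fusion and droplet shape, though not every protein is a known fusion partner. Of these genes, 4 were higher in iBAT and 1 lower according to the authors' deposited table (median 1.44), where 48.0% of all genes were called. S100b (5.67 ± 0.35, adjusted p = 1.68e-58) and Clstn3 (4.48 ± 0.27, adjusted p = 1.6e-59), whose locus gives brown fat its droplet protein CLSTN3B, were higher according to the authors' deposited table, which does not separate transcripts of the locus. Per the authors' deposited table, Tbc1d4, encoding the Rab regulator AS160 (1.44 ± 0.21), and Rabif (1.13 ± 0.13) were higher, and the GTPase gene Rab8a was lower (-0.71 ± 0.15, adjusted p = 1.33e-05). For contact between droplets and mitochondria 6 genes were listed, not all of them for known tethers. Among them 4 were higher, none lower and 2 not called (median 1.69), beside 20.9% higher and 27.1% lower in the whole table. Mtfp1, encoding a mitochondrial fission protein, had the highest value (3.20 ± 0.19), followed by Miga2 (2.01 ± 0.16), the mitofusin gene Mfn2 (1.70 ± 0.16) and Rmdn3 (1.68 ± 0.23), while Slc27a4 (-0.19 ± 0.15, adjusted p = 0.316) and Vps13d (0.09 ± 0.15, adjusted p = 0.648) were not called according to the authors' deposited table.

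Of 7 genes for lipolysis enzymes and regulators, 2 were higher in iBAT and 5 not called according to the authors' deposited table (median 0.00). With 20.9% of all genes higher, that count does not set the list apart. Per the authors' deposited table, Pnpla2, encoding the first triglyceride lipase ATGL, was higher (0.87 ± 0.26, adjusted p = 0.00179), as was Pnpla3 (0.80 ± 0.34, adjusted p = 0.0287). Abhd5, whose protein PLIN1 binds, stood at 0.00 ± 0.20 (adjusted p = 0.986) and the lipase gene Lipe at -0.02 ± 0.25 (adjusted p = 0.944) according to the authors' deposited table. G0s2, an inhibitor of ATGL (0.28 ± 0.38, adjusted p = 0.551), Mgll (-0.32 ± 0.24, adjusted p = 0.272) and Hilpda (-0.38 ± 0.29, adjusted p = 0.253) were not called according to the authors' deposited table either.

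Genes of droplet formation and the remaining droplet surface proteins had calls in both directions, in shares not far from those of all genes (20.9% higher and 27.1% lower) for the surface proteins. Among 11 measured formation genes 5 were higher, 1 lower and 5 not called (median 0.45). They ranged from Fitm1, a lipid-partitioning gene also active in muscle (5.68 ± 0.39, adjusted p = 3.99e-46, base mean 103), to Tmem159, encoding a seipin partner (-1.75 ± 0.20, adjusted p = 4.27e-18) according to the authors' deposited table. Bscl2, which encodes seipin itself, was not called (-0.22 ± 0.25, adjusted p = 0.452) according to the authors' deposited table. Of 24 measured surface genes 7 were higher, 6 lower and 11 not called (median 0.17). They ranged from Aup1 (2.67 ± 0.93, adjusted p = 0.00129, base mean 70.9) to Mettl7b (-5.25 ± 0.57, adjusted p = 6.1e-20, base mean 90.1) according to the authors' deposited table. Among the lower ones were the caveolar genes Cav1 (-0.90 ± 0.14), Cavin1 (-1.24 ± 0.28) and Ehd2 (-1.01 ± 0.20) according to the authors' deposited table, picked here after their values were seen.

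**Figure D5:**
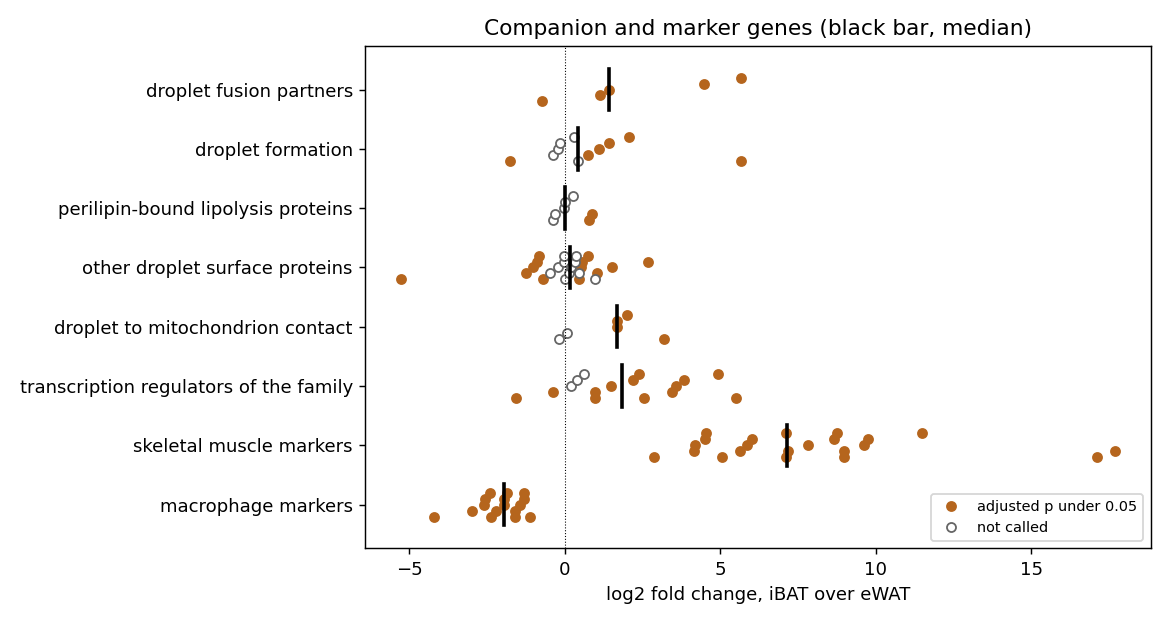
Log2 fold change, iBAT over eWAT, of the genes in 6 companion lists and of the muscle and macrophage markers; filled points passed an adjusted p under 0.05, open points did not, and black bars are medians. The lipolysis list lies around its median of 0.00, while the regulators have a median of 1.85 and the muscle markers one of 7.16.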

How the data were processed

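Tissue RNA was purified by TRIzol extraction and silica columns, turned into stranded total RNA libraries and read on an Illumina NextSeq, per the labels' protocols. Among tools and builds, GRCm38, mm10, kallisto 0.45.0, DESeq and DESeq2 are named per the submitters' processing notes, with no step given for each. The base mean is a signal per gene that the authors deposited, a mean of counts divided by size factors over all samples, per the file headers. The log2 fold changes are log2 values of the authors, and their standard errors, recorded as a score, are also as deposited, per the file headers. P-values, raw and adjusted, were used as the authors deposited them, and adjusting the raw ones by Benjamini-Hochberg gave the adjusted ones to within 2.4e-07. In only 10.7% of genes was log10 of the deposited p within 0.01 of that computed from the fold change divided by its SE, so p and SE may come from different steps, and fold changes of low genes such as Cideb may have been shrunken toward 0.

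Ensembl IDs were matched to symbols for 18758 of 18947 genes, and 189 had none. The 8 members, the 16 gene lists (the 5 perilipins and 3 Cide genes among them) and the tests were chosen with earlier results of these data known. The rule for named genes took all members, all regulators, of each companion list the called genes with the largest and smallest fold change, and of marker lists up to 3 of highest base mean; short lists are given in full. Named outside that rule were Bscl2, the 4 genes that set the direction, the caveolar genes and the neighbours. Calls use an adjusted p under 0.05 over the whole table. Intervals are 95% normal intervals from the SE. Implied levels solve the base mean and fold change for 2 depot means. Promoters and coordinates come from RefSeq, GRCm38.p6. Calculations used Python 3.11.15, pandas 2.3.3, numpy 2.4.6 and scipy 1.17.1, and the adjustment and the solving step were tested on simulated data. The microRNA file was not used. Protein sequences were not used here, so the planned protein comparison was not made.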

Additional observations from a re-analysis of the deposited data

How the results depend on the processing

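The 8 members kept their call under p-values from fold change over SE, centring on the median of all genes, and base mean minimums of 10 and 100. No adjusted p was above 0.00594 (Cideb, from fold change over SE). Their direction could not change, since only centring alters the fold changes, by less than the smallest member value of 0.76 (Plin2). All 8 have a base mean of at least 100, so the minimums only changed how many genes the p-values were adjusted over. Requiring at least 1 on the log2 scale left 4 of the 5 members higher in iBAT and 2 of the 3 lower. All 16 implied levels stayed within their ranges after centring, but this outcome was fixed in advance. Centring moves every log2 fold change by the median of all genes (-0.10). That shift is smaller in size than the smallest member standard error, 0.13 for Cidea, and the ranges reach further than a standard error. Of the 96 companion list counts recomputed, 88 stayed within 1.5 times. The others came from requiring at least 1 on the log2 scale, by its construction, and from centring. With that requirement the lower count was 0 for the Cide genes, 0 for the droplet fusion list and 1 for the regulators. The higher count was 0 for the lipolysis proteins and 1 for the endothelial markers, and the other surface proteins had 3 higher and 3 lower. With centring the regulators had 1 lower, as Rxra was lost. Only depot-level values were used, so the depth of single libraries cannot be weighed and leaving out a library was not run. No paired analysis was possible because the columns carry no values of single libraries. The protein identity comparison was not run.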
